A study of Mus musculus with 16 samples.

Results

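Fibroblasts and mural cells, the pericytes and smooth muscle cells that wrap blood vessels, share skeletal muscle with the myogenic cells, and 32 genes that mark them were followed through cultures of mouse myoblasts. The 32 genes were chosen by name as markers of these cells, 23 for fibroblasts and 9 for mural cells. A gene was taken as present when the array files named a probe for it, which held for 32 of 32 among 34836 gene names on the array. Of these, 29 had a median log2 signal of at least 5 over the 16 arrays and were tested with 20317 genes in all, 20 of them fibroblast genes and 9 mural genes. The 3 members below that limit were Dpp4, Pi16 and Tcf21.

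Muscle fibroblasts and their fibro-adipogenic progenitors carry the receptor PDGFRA, stay in the interstitium between myofibers and build its matrix of collagens, small proteoglycans and elastic microfibrils. Pericytes lie on capillaries, carry PDGFRB and NG2 and respond to PDGF-BB from endothelial cells, while smooth muscle cells of larger vessels contract through a set of actin- and myosin-associated proteins. Those contractile genes share serum response factor (SRF) as a regulator, which binds a short element named the CArG box. Several members are no private markers, since smooth muscle actin and transgelin also appear in activated fibroblasts and in early muscle differentiation, and skeletal muscle fibers use the channel subunit encoded by Abcc9.

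RNA came from myoblasts of male C57Bl/6J mice of 11 to 13 weeks, with no transgene or treatment in any group. Dispersed myoblasts grew on gelatin-coated dishes, away from the fiber, and each replicate came from 1 mouse. Myofiber-associated myoblasts grew on isolated single myofibers, were washed and trypsinized off them, and each replicate came from 2 mice. Per the labels 1 of the 48-hr replicates was pooled from 2 preparations. It was taken to be replicate 10+11, the only one whose title names 2 numbers, and is called the pooled replicate or array below. Each culture was sampled 48 and 72 hr after isolation on 4 one-color Agilent arrays per group, so that the comparisons ask how the genes moved over a day in each culture and how the cultures differed at each time. How the dispersed cells were purified is not given in the sources used here, and in bulk RNA fewer cells of a type and less RNA per cell cannot be told apart. All myofiber-associated arrays lay on one slide and all dispersed arrays on another, so that culture and slide cannot be told apart. Time was likewise tied to the position on a slide, with 48-hr samples in columns 3 and 4 and 72-hr samples in columns 1 and 2, and the 2 cannot be told apart.

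Values are log2 signals after normalization, a signal of 1 gene is set only against itself, and a gene is said to have risen, fallen or differed where limma's Benjamini-Hochberg adjusted p over the 20317 genes was below 0.01. The probes well above the scanner's background made up 54 to 63.5% of each array, no gene spot was saturated, and the median SD of a gene within a group was 0.09 (48 hr) and 0.1 (72 hr) among dispersed arrays against 0.22 and 0.18 among myofiber-associated arrays. Of the members, 25 of 32 were well above background on all 16 arrays. Genes of other cells were also measured: the mean log2 signal over 20 endothelial genes was 12.42 to 12.81 in dispersed myoblasts at 48 hr, 10.93 to 11.41 at 72 hr, 9.47 to 10.59 in myofiber-associated myoblasts at 48 hr and 7.46 to 8.62 at 72 hr, with all 20 well above background on at least 1 array. Over 14 adult muscle fiber genes the same means were 9.32 to 10.44, 8.83 to 9.1, 15.21 to 15.98 and 12.92 to 14.96. All 11 measured myoblast genes were well above background on at least 1 array. In myofiber-associated against dispersed myoblasts 2 of them were higher and 4 lower at 48 hr (median log2 difference -0.27) and 3 were higher and none lower at 72 hr (median 0.47). Of all genes tested, 16.1% were higher and 27% lower at 48 hr, and 11.5% and 15.6% at 72 hr. The 2 higher at 48 hr were Myog at 8.25 ± 0.28 (SE) and Des at 4.05 ± 0.18. At 72 hr these differed by 3.7 ± 0.43 and 2.37 ± 0.33. Of the 14 adult fiber genes 13 were higher at 48 hr and 12 at 72 hr, with median differences of 5.97 and 5.52. The part of fiber RNA in the differences of Myog and Des was not tested.

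**Figure D1:**
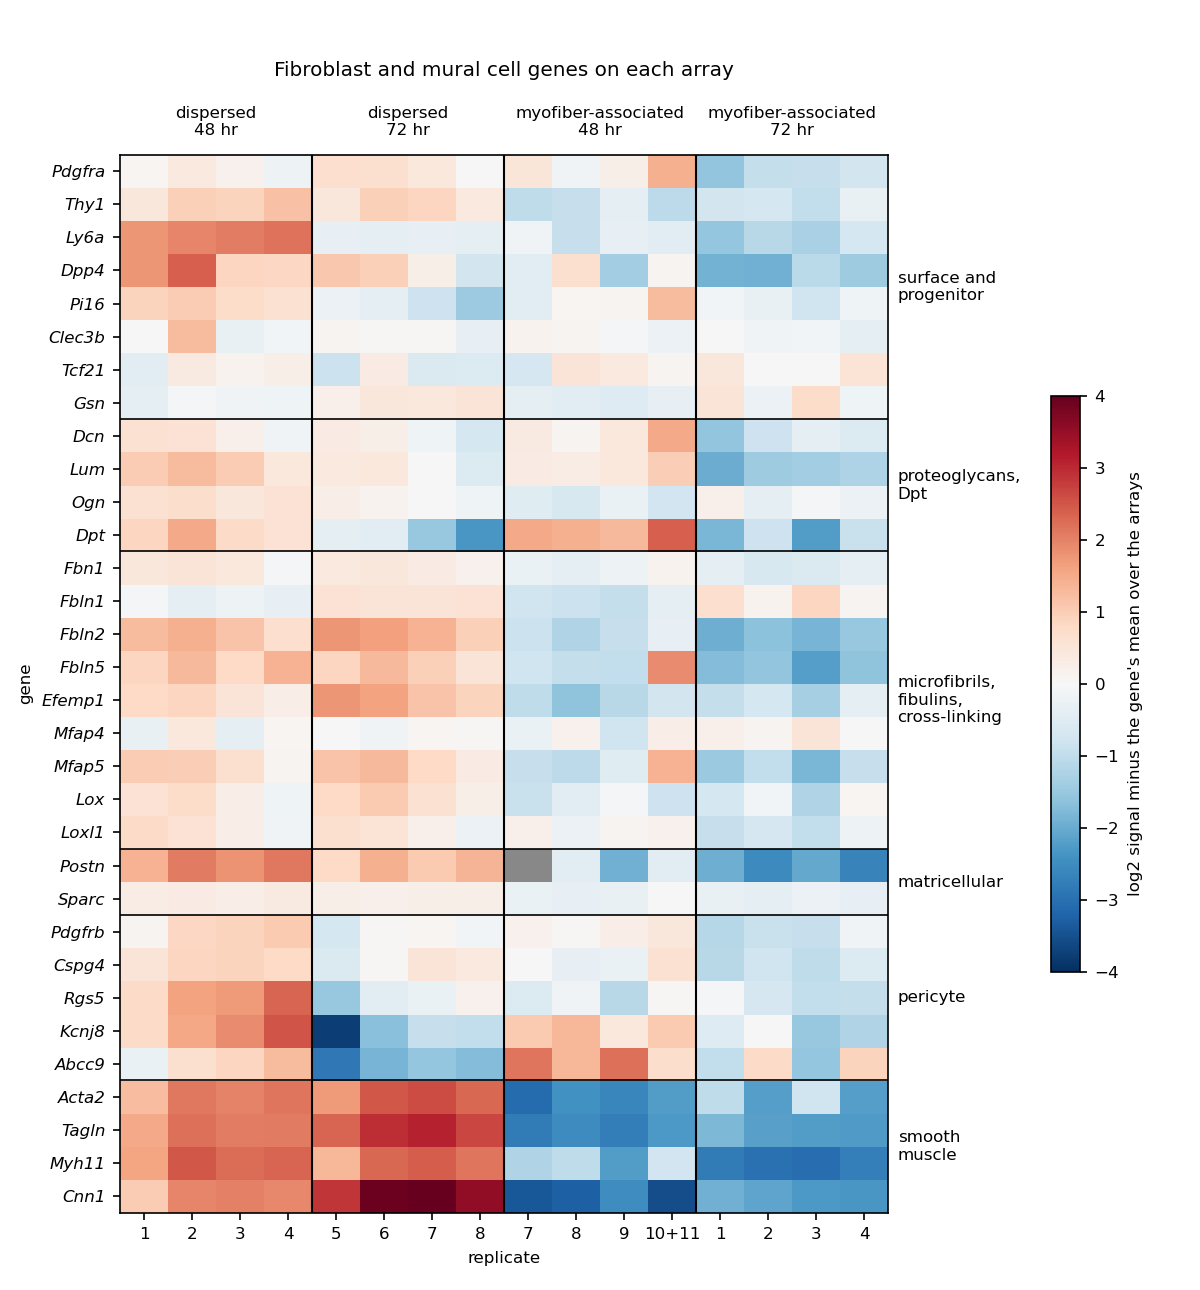
Log2 signal of the 32 genes (rows, grouped by role) on the 16 arrays (columns, by group and replicate), shown as the difference from the gene's mean over the arrays, with the color scale ending at -4 and 4 and the 1 missing value in gray. The 4 smooth muscle rows at the bottom are red on all 8 dispersed arrays and blue on all 8 myofiber-associated arrays.

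Between 48 and 72 hr in dispersed myoblasts, 3 pericyte genes fell by 2.11 to 3.52 on the log2 scale while the smooth muscle gene Cnn1 rose by 1.9, and the fibroblast genes moved in both directions. Of the 29 tested members, 3 rose and 5 fell, which is 27.6% of them against a background of 13.7% of all genes tested (7.38% of genes rose and 6.32% fell). Fibroblast genes gave 2 rises (Gsn and Fbln1) and 2 falls (Ly6a and Ogn) among 20, and mural genes 1 rise (Cnn1) and 3 falls (Rgs5, Kcnj8 and Abcc9) among 9. The 2 times did not overlap for 5 members that were higher and 8 that were lower at 72 hr, against 17.5% and 13.6% of all genes. The median change was -0.08 over the fibroblast genes and -0.66 over the mural genes, beside 0.02 over all genes. Leaving out 1 array at a time gave 4 to 8 members, the lowest count without 72-hr replicate 6, and moved the fibroblast median between -0.12 and 0.02 and the mural median between -0.8 and -0.44. The count over all genes also varied in these fits, as given in the last section, and was lowest without 48-hr replicate 2.

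In myofiber-associated myoblasts fewer members passed the test over the same day. The fibulin gene Fbln1 rose, and Lum, Dpt and the smooth muscle gene Myh11 fell, so that 4 of 29 changed (13.8%) against a background of 5.48% of all genes, of which 3.74% rose and 1.74% fell. By class, 1 fibroblast gene rose and 2 fell among 20, and 1 mural gene fell among 9. For 5 members all 72-hr values were higher and for 12 all were lower than at 48 hr, against 15.9% and 10.4% of all genes. The median changes were -0.52 for the fibroblast genes, -0.88 for the mural genes and 0.06 for all genes. The count rested on single arrays: 1 member passed without 48-hr replicate 7, 2 without 48-hr replicate 8 or without 72-hr replicate 1 or 3, and 6 without the pooled replicate 10+11. The count over all genes, given in the last section, was likewise lowest without 48-hr replicate 7 and highest without the pooled replicate.

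The change itself differed between the cultures for 3 members. On 16 arrays the change in dispersed minus that in myofiber-associated myoblasts was 1.87 ± 0.4 (SE) for Pdgfra, -1.63 ± 0.25 for Ly6a and -0.93 ± 0.19 for Ogn, with limma adjusted p of 0.00985, 0.00152 and 0.00788. These are 3 fibroblast genes of 20 and none of the 9 mural genes, 10.3% of the members against a background of 3.45% of all genes (1.09% in the positive and 2.36% in the negative direction). Among the mural genes, 2 passed an adjusted p of 0.05, as did 15.4% of all genes (6.27% positive and 9.14% negative), Rgs5 at -1.88 ± 0.54 (adjusted p = 0.034) and Myh11 at 1.49 ± 0.43 (adjusted p = 0.0333). The median difference was 0.39 for fibroblast genes, 0.12 for mural genes and -0.07 for all genes.

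**Figure D2:**
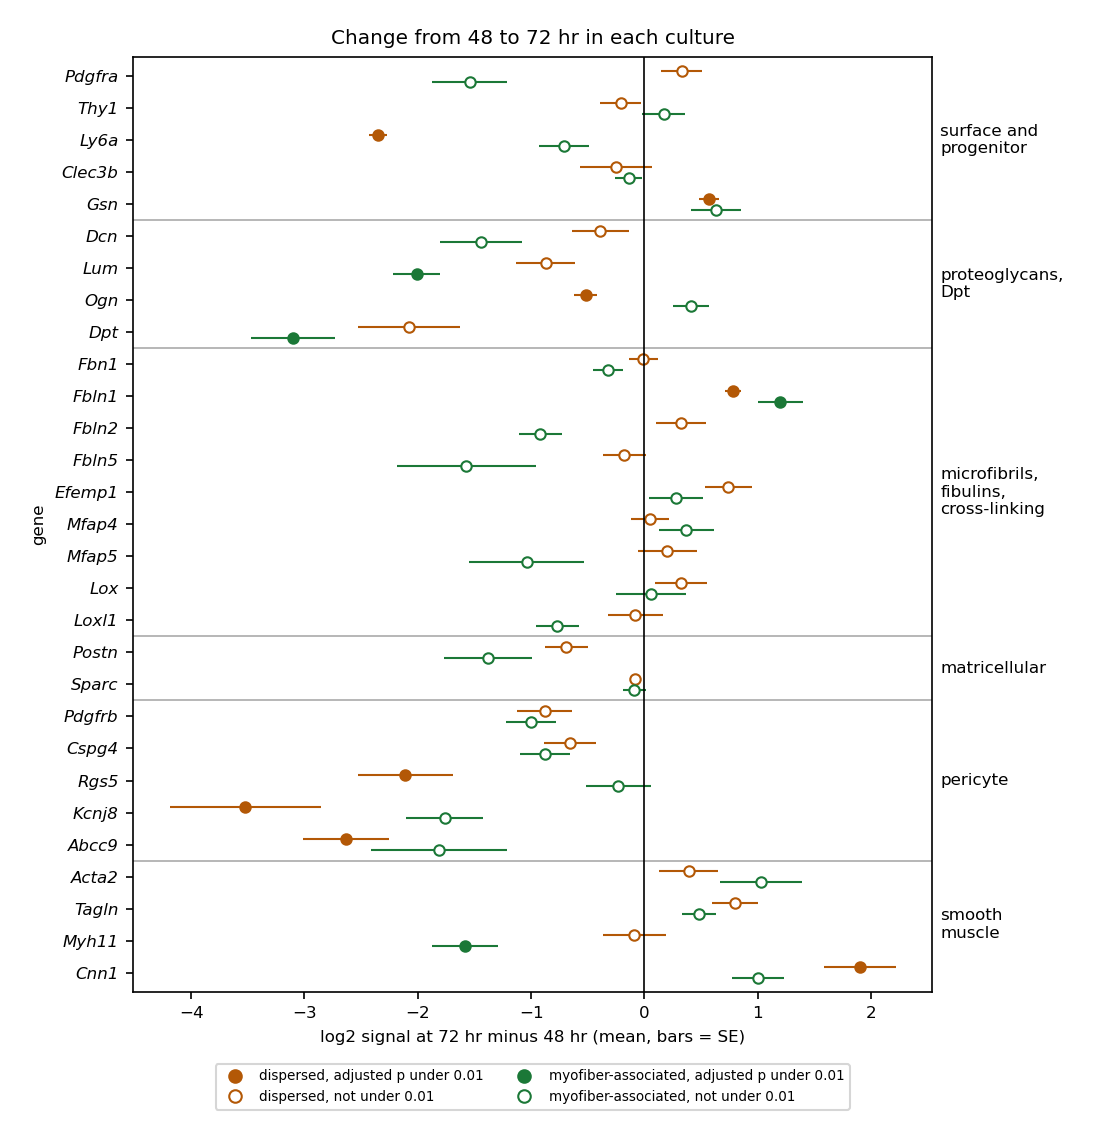
Log2 change from 48 to 72 hr of the 29 tested members in dispersed (orange) and myofiber-associated (green) myoblasts, as mean and SE from limma on 8 arrays each, filled where the adjusted p was below 0.01. The pericyte genes lie left of 0 in both cultures, and Cnn1 has the largest rise of the members in dispersed myoblasts, at 1.9.

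Between the cultures the members differed in 1 direction. At 48 hr 12 of 29 were lower in myofiber-associated myoblasts and none was higher, and at 72 hr 16 were lower and none higher. The 41.4% at 48 hr lies near the background of 43.2% of all genes that differed at that time, although 27% of all genes were lower and 16.1% higher. At 72 hr 55.2% of the members were lower, against a background of 27.1% of all genes that differed, with 15.6% lower and 11.5% higher. The cultures did not overlap for 13 members at 48 hr, all lower in myofiber-associated myoblasts, and for 16 lower and 1 higher (Abcc9) at 72 hr. Of all genes, 35.3% were lower and 20.7% higher in this way at 48 hr, and 26.1% and 20.3% at 72 hr. Fibroblast genes supplied 7 of 20 at 48 hr and 12 of 20 at 72 hr, and mural genes 5 of 9 and 4 of 9. Their medians were -0.53 and -0.91 for fibroblast genes, -2.04 and -0.97 for mural genes, and -0.12 and -0.02 for all genes. The mural genes split by role. The 5 pericyte genes had medians of -0.72 and -0.16, with 1 lower at 48 hr and none at 72 hr. The 4 smooth muscle genes had medians of -4.51 and -4.91, with all 4 lower at each time. Without the pooled replicate 10+11 the 48-hr count was 17, the highest over the arrays left out. The share of all genes that differed in that fit is not given here, so this count is not a result about the members alone. Genes of other cells also differed. At 48 hr 19 of 20 endothelial, 7 of 8 Schwann cell, 9 of 14 leukocyte and 3 of 3 adipocyte genes were lower in myofiber-associated myoblasts and 13 of 14 adult fiber genes higher, while 1 leukocyte gene was higher, 3 of 4 tenocyte genes were higher and 1 was lower. At 72 hr 18 endothelial, 5 Schwann cell, 7 leukocyte and 1 adipocyte genes were lower and 12 adult fiber genes, 2 leukocyte genes and 1 tenocyte gene higher, and the part of these cells in the members' differences was not tested.

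**Figure D3:**
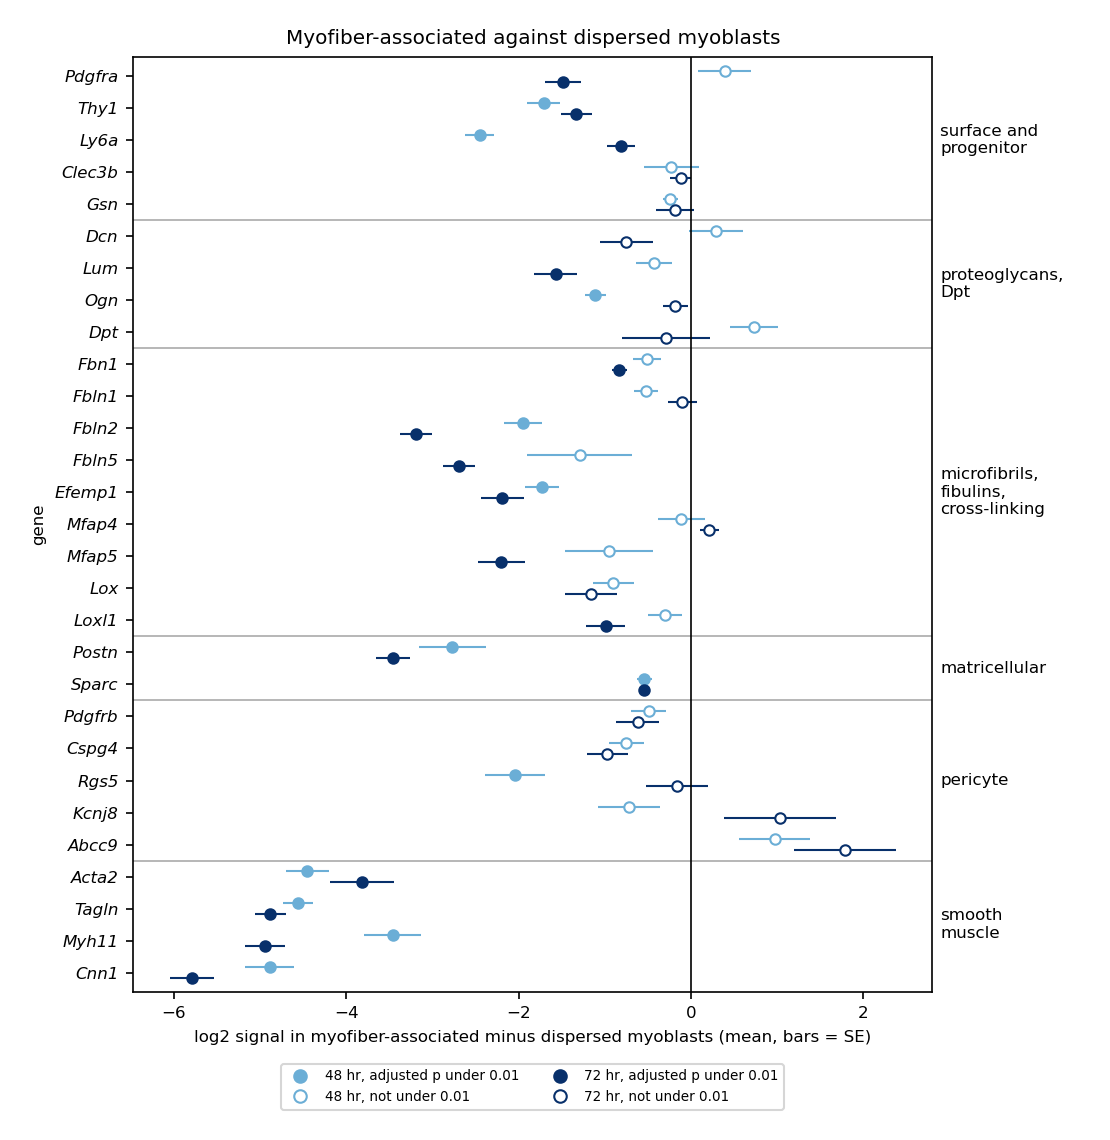
Log2 signal in myofiber-associated minus dispersed myoblasts at 48 hr (light blue) and 72 hr (dark blue) for the 29 tested members, as mean and SE from limma on 8 arrays each, filled where the adjusted p was below 0.01. The smooth muscle genes stand between -3.46 and -5.79, at each time left of every other member, and Kcnj8 and Abcc9 lie right of 0 at 72 hr without passing the test.

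Among the surface and progenitor genes of fibroblasts, Pdgfra encodes the PDGF receptor that defines fibro-adipogenic progenitors. Its log2 signal was 10.74, 11.04, 10.81 and 10.43 on the dispersed 48-hr arrays and 11.32, 11.3, 11.08 and 10.64 at 72 hr, overlapping ranges with a change of 0.33 ± 0.18 (SE, adjusted p = 0.217). On myofiber-associated arrays it was 11.12, 10.52, 10.88 and 12.08 at 48 hr, the last on the pooled array, and 9.07, 9.7, 9.73 and 9.92 at 72 hr. The latter groups did not overlap, and the change was -1.54 ± 0.33 with an adjusted p of 0.0167, which became 0.00893 without the pooled array. At 72 hr Pdgfra was 2.79-fold lower in myofiber-associated than in dispersed myoblasts (log2 difference -1.48 ± 0.21, adjusted p = 0.00112), whereas the 48-hr difference was 0.39 ± 0.31 (adjusted p = 0.298). The difference between the 2 changes kept its sign without any 1 array, at 1.56 to 2.08, but passed the threshold in only 4 of those 16 fits, with a highest adjusted p of 0.0249. It also missed it with normexp background correction, without the filter on low signal, with quantile normalization only and with a filter on signal well above background (adjusted p = 0.0136, 0.0203, 0.0101 and 0.0116).

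Ly6a, which encodes the surface protein Sca-1 of muscle mesenchymal progenitors and of endothelial cells, had closely spaced values in dispersed myoblasts. In dispersed myoblasts it read 12.55, 12.72, 12.81 and 12.95 at 48 hr and 10.44, 10.37, 10.44 and 10.4 at 72 hr. It thus fell 5.08-fold (log2 change -2.35 ± 0.08, adjusted p = 8.14e-06), and passed the test without any 1 array. The myofiber-associated arrays gave 10.63, 9.84, 10.43 and 10.35 at 48 hr and 9.21, 9.66, 9.47 and 10.06 at 72 hr, groups that overlapped, with a change of -0.71 ± 0.22 (adjusted p = 0.0491). Its level was lower there at 48 hr by a log2 difference of -2.45 ± 0.17 (adjusted p = 1.46e-05) and at 72 hr by -0.81 ± 0.16 (adjusted p = 0.00486), the latter no longer below the threshold when any 1 of 6 of the 8 arrays was left out (highest adjusted p 0.0164) or without the filter on low signal (0.0113). Over the same interval in dispersed myoblasts 19 of 20 endothelial genes fell, against 6.32% of all genes, with a median change of -1.43. Their part in the change of Ly6a was not tested.

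Thy1, a surface glycoprotein of fibroblasts, differed between the cultures and had no call over time. Dispersed myoblasts had means of 12.42 ± 0.3 (SD, n = 4) at 48 hr and 12.21 ± 0.28 at 72 hr, and myofiber-associated myoblasts of 10.7 ± 0.31 and 10.88 ± 0.28, log2 differences of -1.71 ± 0.19 and -1.33 ± 0.18 between cultures (adjusted p = 0.000166 and 0.000759). The time changes were -0.21 ± 0.18 and 0.17 ± 0.19, with 95% confidence intervals of -0.63 to 0.21 and -0.26 to 0.61. Gsn, which encodes the actin-severing protein gelsolin, rose in dispersed myoblasts from 12.35, 12.65, 12.56 and 12.54 to 12.9, 13.14, 13.11 and 13.21, a non-overlapping change of 0.57 ± 0.09 (adjusted p = 0.00247, or 0.0538 in 1 fit of all 16 arrays). Its change in myofiber-associated myoblasts was of like size but less even, 0.63 ± 0.22 (adjusted p = 0.0677), with 72-hr arrays at 13.21, 12.46, 13.42 and 12.54.

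The remaining genes of this group were dim. Clec3b, which encodes the plasminogen-binding protein tetranectin, lay between 5.13 and 6.75 and passed no test. Pi16 and Dpp4, markers of adventitial and other progenitor-like fibroblasts, stayed below the limit for testing: Pi16 had group means of 5.93, 4.4, 5.39 and 4.79 and Dpp4 of 4.99, 3.9, 3.26 and 1.96, in the order dispersed 48 and 72 hr, then myofiber-associated 48 and 72 hr. Dpp4 was well above background on 2, 2, 1 and 0 of the 4 arrays. Tcf21, a transcription factor of mesenchymal progenitors, was well above background on 0, 1, 2 and 3 arrays, with group means of 4.11, 3.61, 4.12 and 4.27.

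The small leucine-rich proteoglycans, which coat collagen fibrils, and their partner dermatopontin (Dpt) had 1 member of 4 that fell in dispersed myoblasts (median change -0.7) and 2 that fell in myofiber-associated myoblasts (median -1.73). Of all genes tested, 6.32% fell in dispersed (median 0.02) and 1.74% in myofiber-associated myoblasts (median 0.06). Dpt read 6.85, 7.5, 6.76 and 6.57 in dispersed myoblasts at 48 hr against 5.63, 5.58, 4.48 and 3.67 at 72 hr, and 7.52, 7.41, 7.29 and 8.39 against 4.15, 5.16, 3.77 and 5.11 in myofiber-associated myoblasts. Neither pair of groups overlapped. The change was -3.1 ± 0.37 in myofiber-associated myoblasts, an 8.6-fold fall (adjusted p = 0.0022), and -2.08 ± 0.45 in dispersed myoblasts, where it missed the threshold (adjusted p = 0.0115). At 72 hr 3 of the 4 arrays of each culture had Dpt well above background. Without 48-hr replicate 7 the adjusted p of the fall in myofiber-associated myoblasts was 0.0102.

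Lum, which encodes lumican, fell 4.04-fold in myofiber-associated myoblasts, from 11.81, 11.79, 11.9 and 12.45 to 9.48, 10.05, 10.1 and 10.25 (log2 change -2.01 ± 0.21, adjusted p = 0.00125), and passed the test without any 1 array. Its change in dispersed myoblasts was -0.87 ± 0.26 (adjusted p = 0.0387), with overlapping groups. Decorin (Dcn), whose gene is the next protein-coding neighbor of Lum on the chromosome in RefSeq's GRCm38.p6 annotation, gave -1.44 ± 0.36 (adjusted p = 0.0261) and -0.39 ± 0.25 (adjusted p = 0.3) in the same order. Among the myofiber-associated 48-hr arrays both were highest on the pooled one, at 12.45 for Lum and 17.29 for Dcn. That array was the highest of its group for 13 of the 19 fibroblast genes with a value on every array. At 72 hr Lum was 2.98-fold lower in myofiber-associated than in dispersed myoblasts (log2 difference -1.57 ± 0.25, adjusted p = 0.00168) and Dcn differed by -0.75 ± 0.31 (adjusted p = 0.0777).

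Osteoglycin (Ogn) had changes of opposite sign in the 2 cultures. Dispersed arrays read 9.78, 9.89, 9.63 and 9.77 at 48 hr and 9.45, 9.33, 9.18 and 9.02 at 72 hr, a fall of 1.44-fold (log2 change -0.52 ± 0.1, adjusted p = 0.00673), and myofiber-associated arrays 8.71, 8.54, 8.92 and 8.43 and then 9.37, 8.8, 9.15 and 8.94, a change of 0.41 ± 0.16 (adjusted p = 0.0862). The times did not overlap in dispersed myoblasts and overlapped in myofiber-associated myoblasts. The difference between the changes passed the test in the fit of all arrays (adjusted p = 0.00788) and in 4 of the 16 fits that left out 1 array, between -1.02 and -0.83, but not without the filter on low signal (0.0157). The fall in dispersed myoblasts held in 2 of 8 such fits, with a highest adjusted p of 0.0222, and was not called without the filter or in 1 fit of all arrays (0.0174 and 0.023). At 48 hr Ogn was 2.16-fold lower in myofiber-associated myoblasts (adjusted p = 0.000122), and at 72 hr the log2 difference was -0.18 ± 0.14 (adjusted p = 0.335).

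Among the microfibril, fibulin and cross-linking genes, Fbln1, whose product fibulin-1 sits in basement membranes and elastic fibers, rose in both cultures. It read 9.24, 8.93, 9.08 and 8.95 and then 9.86, 9.79, 9.81 and 9.85 in dispersed myoblasts, and 8.48, 8.41, 8.33 and 8.9 and then 9.95, 9.44, 10.14 and 9.39 in myofiber-associated myoblasts. The groups did not overlap in either culture. The rises were 1.72-fold (log2 0.78 ± 0.07, adjusted p = 0.000235) and 2.3-fold (log2 1.2 ± 0.2, adjusted p = 0.00756). The first passed without any 1 array and the second in 2 of 8 such fits, with a highest adjusted p of 0.0285. The second also missed the threshold with the slide row as a block, with normexp and without the filter on low signal (adjusted p = 0.0148, 0.0114 and 0.0194). The group means of its other 2 probes also lay higher at 72 than at 48 hr in both cultures.

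The other fibulins separated the cultures. Fbln2, an elastic fiber and basement membrane protein, read 15, 15.16, 14.87 and 14.4 on the dispersed 48-hr arrays and 15.51, 15.38, 15.12 and 14.68 at 72 hr, against 12.88, 12.52, 12.81 and 13.4 and then 11.77, 12.08, 11.87 and 12.21 on the myofiber-associated arrays. All dispersed values lay above all myofiber-associated values. The differences were 3.87-fold at 48 hr and 9.13-fold at 72 hr (log2 -1.95 ± 0.22 and -3.19 ± 0.19, adjusted p = 0.000165 and 1.8e-05). Efemp1, which encodes fibulin-3, was lower by 3.31-fold and 4.56-fold (adjusted p = 0.000199 and 0.000361), again with no overlap. Fbln5, an elastic fiber assembly protein, was 6.44-fold lower at 72 hr (log2 -2.69 ± 0.19, adjusted p = 4.2e-05), but at 48 hr the pooled array read 10.9 beside 8.21, 8.06 and 8 on the others, and the difference was -1.29 ± 0.61 (adjusted p = 0.101). Without the pooled array that 48-hr difference had an adjusted p of 3.23e-05. Fbln5 has a second probe with group means of 3.22, 2.24, 2.42 and 2.9, and with the mean of both probes the 72-hr adjusted p was 0.0836.

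Mfap5, a fibrillin-binding microfibril protein, also had its highest 48-hr value on the pooled array, with 10.69, 10.56, 11.13 and a pooled value of 12.98 at 48 hr in myofiber-associated myoblasts. Its 48-hr difference from dispersed myoblasts was -0.95 ± 0.51 (adjusted p = 0.141, or 0.00103 without the pooled array) and at 72 hr it was 4.59-fold lower (log2 -2.2 ± 0.27, adjusted p = 0.000483). Fbn1, which encodes the microfibril core protein fibrillin-1, was 1.77-fold lower at 72 hr (adjusted p = 0.000374) and Loxl1, which encodes a cross-linking enzyme of elastin, 1.99-fold lower (adjusted p = 0.00967, up to 0.0307 without 1 array and between 0.0105 and 0.0211 in 5 processing alternatives). Lox, its relative that also cross-links collagen, differed by -1.16 ± 0.3 at 72 hr and -0.9 ± 0.24 at 48 hr (adjusted p = 0.0148 and 0.0122). Mfap4, an elastic fiber protein, lay between 4.53 and 5.85 on all 16 arrays and passed no test. None of the 9 genes of this group other than Fbln1 passed the test over time in either culture. Even so, the times did not overlap for Efemp1 in dispersed myoblasts, higher at 72 hr by 0.74 ± 0.21 (adjusted p = 0.0342). In myofiber-associated myoblasts they did not overlap for Fbln2 (-0.92 ± 0.19), Fbln5 (-1.57 ± 0.61) and Fbn1 (-0.32 ± 0.13), all lower at 72 hr (adjusted p = 0.0151, 0.0915 and 0.0956).

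The matricellular proteins behaved unlike each other in size. Postn encodes periostin, a matrix protein of activated fibroblasts, and its signal was 10.98, 11.66, 11.38 and 11.67 and then 10.38, 10.99, 10.62 and 10.94 in dispersed myoblasts. In myofiber-associated myoblasts 3 arrays gave 9.16, 7.65 and 9.13 at 48 hr, replicate 7 having been dropped as an outlying spot, and 4 gave 7.62, 7.02, 7.53 and 6.91 at 72 hr. All dispersed values exceeded all myofiber-associated values, by 6.84-fold at 48 hr and 11-fold at 72 hr (log2 -2.77 ± 0.39 and -3.46 ± 0.2, adjusted p = 0.000766 and 1.8e-05). The changes over time were -0.69 ± 0.19 and -1.38 ± 0.39 (adjusted p = 0.031 and 0.0446), neither past the threshold. Sparc, which encodes a collagen-binding protein that many mesenchymal cells and myoblasts make, lay between 17.86 and 18.6 on all arrays with its brightest probe. By that probe it was lower in myofiber-associated myoblasts by 1.45-fold at 48 hr and 1.46-fold at 72 hr (adjusted p = 0.00111 and 0.000259). Scaled to the 75th percentile, these 2 differences missed the threshold, with adjusted p of 0.0116 and 0.011. A second Sparc probe, not tested by itself, had larger differences. Its group means were 15 and 14.9 in dispersed and 13.82 and 13.79 in myofiber-associated myoblasts, log2 differences of -1.18 at 48 hr and -1.11 at 72 hr.

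Among the pericyte genes, Kcnj8 and Abcc9 encode the pore and the regulatory subunit of the vascular ATP-sensitive potassium channel and are neighbors in RefSeq's GRCm38.p6 annotation. Their probes lay at chr6:142513487-142513546 and chr6:142536920-142536979 of the mm9 build, both on the minus strand, per the array files. Kcnj8 read 6.84, 7.65, 7.97 and 8.62 at 48 hr and 2.31, 4.41, 5.18 and 5.11 at 72 hr in dispersed myoblasts, and Abcc9 read 8.46, 9.38, 9.59 and 10 and then 5.87, 6.87, 7.19 and 7. The time points did not overlap for either gene. Kcnj8 fell 11.4-fold (log2 -3.52 ± 0.67, adjusted p = 0.00676), and only 4 of the 20317 genes had a larger fall. Abcc9 fell 6.18-fold (log2 -2.63 ± 0.38, adjusted p = 0.00206) and passed without any 1 array, whereas Kcnj8 passed in 3 of 8 such fits (highest adjusted p 0.0209) and not without the filter on low signal (0.0189). At 72 hr Kcnj8 was well above background on 3 of the 4 arrays.

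In myofiber-associated myoblasts Kcnj8 went from 7.15, 7.41, 6.5 and 7.15 to 5.57, 6.09, 4.58 and 4.9, and Abcc9 from 10.86, 10.05, 10.95 and 9.45 to 7.76, 9.5, 7.19 and 9.61. The time points did not overlap for Kcnj8 and overlapped for Abcc9. Their changes were -1.76 ± 0.34 (adjusted p = 0.0115) and -1.81 ± 0.6 (adjusted p = 0.0607). The differences from the changes in dispersed myoblasts were -1.75 ± 0.79 and -0.81 ± 0.77, with 95% confidence intervals of -3.45 to -0.06 and -2.45 to 0.83 (adjusted p = 0.134 and 0.47). At 72 hr all 4 myofiber-associated values of Abcc9 lay above all dispersed values, a log2 difference of 1.79 ± 0.59 that missed the threshold (adjusted p = 0.0371). Within that group Abcc9 was higher on replicates 2 and 4 than on 1 and 3, and so was the mean of the adult fiber genes, at 14.44 and 14.96 against 13.19 and 12.92. Replicates 1 and 3 shared the first slide column and 2 and 4 the second, and the part of either in these values was not tested.

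Rgs5, which encodes a regulator of G protein signaling and is a standard pericyte marker, read 10.03, 10.89, 10.98 and 11.61 at 48 hr and 7.77, 8.82, 9.02 and 9.46 at 72 hr in dispersed myoblasts. It fell 4.33-fold (log2 -2.11 ± 0.42, adjusted p = 0.0083), a call that held in 2 of the 8 fits that left out 1 array (highest adjusted p 0.025) and not without the filter on low signal (0.0224). Myofiber-associated myoblasts gave 8.73, 9.14, 8.18 and 9.33 at 48 hr and 9.23, 8.61, 8.28 and 8.33 at 72 hr, a change of -0.23 ± 0.29 with a 95% confidence interval of -0.9 to 0.44. At 48 hr Rgs5 was thus 4.1-fold lower there (adjusted p = 0.00152), and at 72 hr the log2 difference was -0.16 ± 0.36 (adjusted p = 0.75).

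Pdgfrb, the PDGF-BB receptor, and Cspg4, which encodes the proteoglycan NG2, moved less. Pdgfrb read 11.2, 11.91, 11.98 and 12.12 and then 10.39, 11.13, 11.17 and 10.99 in dispersed myoblasts, a change of -0.88 ± 0.24 (adjusted p = 0.0289), and changed by -1 ± 0.22 in myofiber-associated myoblasts (adjusted p = 0.0171). Cspg4 changed by -0.66 ± 0.23 and -0.88 ± 0.22 (adjusted p = 0.0661 and 0.0269). None of these passed the threshold. All 5 pericyte genes had a negative change in both cultures, with medians of -2.11 and -1. Of the 20317 genes tested, 9137 and 8729 had a negative change. Of the 5, 3 passed the test in dispersed myoblasts and none in myofiber-associated myoblasts. Endothelial genes moved alongside, 19 of 20 falling in dispersed myoblasts and 12 of 20 in myofiber-associated myoblasts (median -2.25). Of all genes tested, 6.32% and 1.74% fell. The part of the endothelial genes was not tested.

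**Figure D4:**
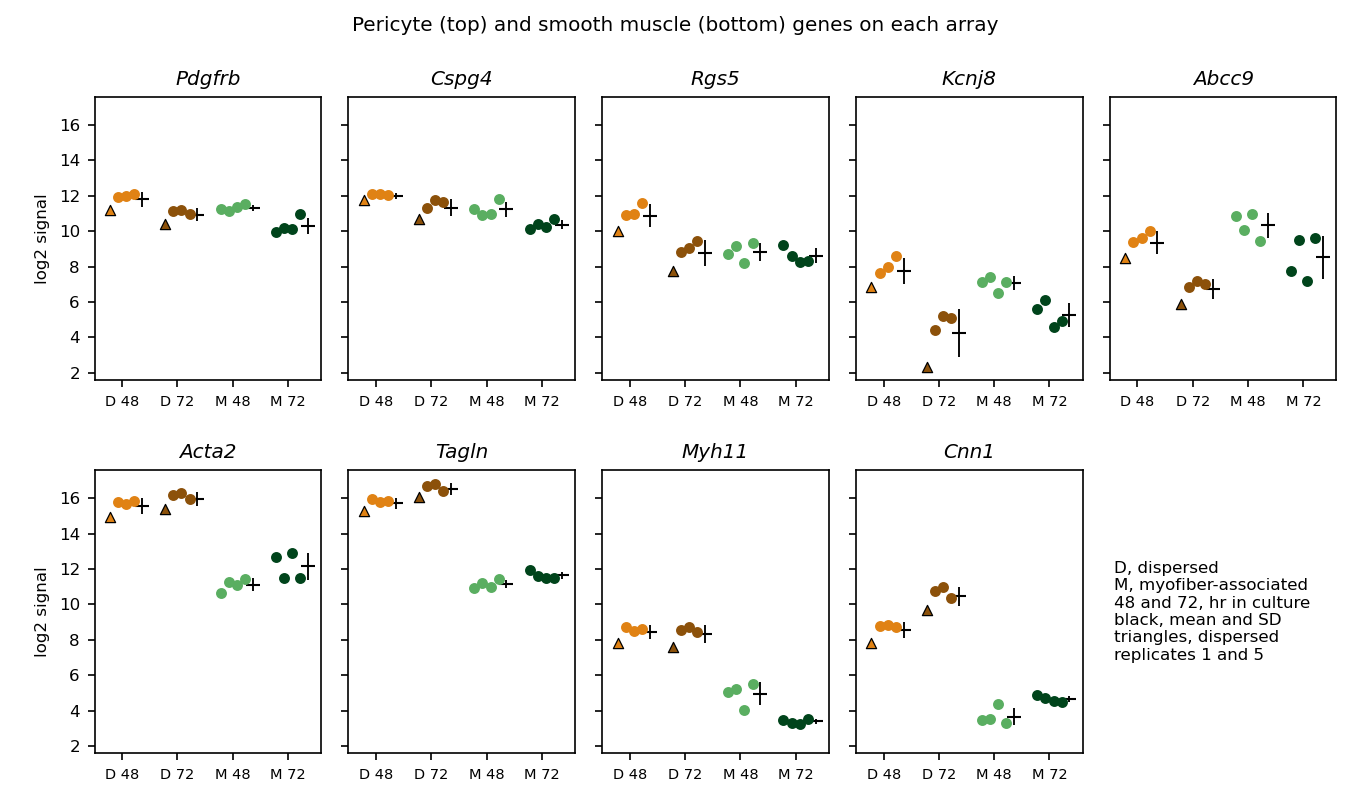
Log2 signal of the 5 pericyte genes and 4 smooth muscle genes on each of 16 arrays, with the mean and SD of each group of 4 in black and dispersed replicates 1 and 5 as triangles. The triangle is the lowest point of its group in all 9 panels, and the smooth muscle signals in myofiber-associated myoblasts lie below those in dispersed myoblasts with a wide gap.

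The smooth muscle contractile genes set the cultures apart more than any other role among the members, with median differences of -4.51 at 48 hr and -4.91 at 72 hr. Acta2, which encodes smooth muscle actin, read 14.93, 15.82, 15.68 and 15.85 at 48 hr and 15.4, 16.17, 16.31 and 15.99 at 72 hr in dispersed myoblasts, against 10.63, 11.29, 11.1 and 11.46 and then 12.7, 11.49, 12.9 and 11.5 in myofiber-associated myoblasts. The difference was 21.9-fold at 48 hr (log2 -4.45 ± 0.25, adjusted p = 5.04e-06) and 14.1-fold at 72 hr (log2 -3.82 ± 0.37, adjusted p = 0.000176). Tagln, which encodes the actin-binding protein transgelin, was lower by 23.6-fold and 29.4-fold (log2 -4.56 ± 0.17 and -4.88 ± 0.18, adjusted p = 1.22e-06 and 4.08e-06). No myofiber-associated value of either gene reached a dispersed value. The Acta2 probe lay at chr19:34316060-34316119 on the minus strand of mm9. Over time Acta2 changed by 0.39 ± 0.26 in the dispersed cells and 1.03 ± 0.36 in the myofiber-associated cells, and Tagln by 0.8 ± 0.2 and 0.48 ± 0.15, none past the threshold (adjusted p = 0.304, 0.0712, 0.0199 and 0.0547).

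Myh11, the heavy chain of smooth muscle myosin and the most specific of the 4 for mature smooth muscle, read 7.84, 8.74, 8.5 and 8.59 and then 7.6, 8.58, 8.7 and 8.42 in dispersed myoblasts, with a change of -0.09 ± 0.28. In myofiber-associated myoblasts it went from 5.06, 5.24, 4.03 and 5.51 to 3.48, 3.3, 3.22 and 3.53, a 2.99-fold fall (log2 -1.58 ± 0.29, adjusted p = 0.00973) between signals that were well above background on 3 and on 1 of the 4 arrays. That fall passed in 1 of the 8 fits without 1 array, with a highest adjusted p of 0.034. It missed the threshold with scaling to the 75th percentile, without the filter on low signal and with the slide row as a block (adjusted p = 0.0175, 0.0249 and 0.0177), and was -0.42 with normexp (0.0325). Against dispersed myoblasts the fitted differences were 11-fold at 48 hr and, with 1 of 4 myofiber-associated arrays well above background, 30.8-fold at 72 hr (log2 -3.46 ± 0.33 and -4.94 ± 0.23, adjusted p = 7.15e-05 and 7.65e-06).

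Cnn1, which encodes the actin-binding protein calponin, rose 3.73-fold in dispersed myoblasts, from 7.84, 8.77, 8.85 and 8.75 to 9.7, 10.75, 10.97 and 10.39 (log2 1.9 ± 0.32, adjusted p = 0.00394). It passed in 4 of the 8 fits without 1 array, with a highest adjusted p of 0.0136, and not without the filter on low signal (0.012). Myofiber-associated values were 3.44, 3.55, 4.36 and 3.28 at 48 hr, well above background on 1 array, and 4.9, 4.71, 4.52 and 4.5 at 72 hr, well above it on all 4, a change of 1 ± 0.23 (adjusted p = 0.0209). Its fitted differences from dispersed myoblasts were 29.7-fold at 48 hr, where 3 of the 4 myofiber-associated arrays were not well above background, and 55.5-fold at 72 hr (log2 -4.89 ± 0.29 and -5.79 ± 0.26, adjusted p = 7.61e-06 and 6.09e-06). Its probe lay at chr9:21913058-21913117 on the plus strand of mm9. All 8 calls of the 4 smooth muscle genes between cultures held without any 1 array.

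The promoters of Acta2 and Cnn1, the smooth muscle members with an entry in the RefSeq promoter table (GRCm38.p6), are shown because contractile genes are known to be read through CArG boxes. The motif searched was the CArG box, a pair of C, 6 bases of A or T and a pair of G, which reads the same way on both strands. Near matches with at most 1 C or G among the 6 central bases were also counted, and they include the exact ones. Each sequence is the 250 bases before the start, and capitals mark the near matches, which are 84 to 75 and 34 to 25 bases before the Acta2 start.
Acta2 promoter, chr19:34255374-34255623, minus strand: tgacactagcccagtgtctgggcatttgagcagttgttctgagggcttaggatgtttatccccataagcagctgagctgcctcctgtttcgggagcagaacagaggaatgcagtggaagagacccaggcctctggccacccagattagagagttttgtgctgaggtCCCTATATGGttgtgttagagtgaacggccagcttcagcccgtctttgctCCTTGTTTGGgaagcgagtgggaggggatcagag
Cnn1 promoter, chr9:22099003-22099252, plus strand: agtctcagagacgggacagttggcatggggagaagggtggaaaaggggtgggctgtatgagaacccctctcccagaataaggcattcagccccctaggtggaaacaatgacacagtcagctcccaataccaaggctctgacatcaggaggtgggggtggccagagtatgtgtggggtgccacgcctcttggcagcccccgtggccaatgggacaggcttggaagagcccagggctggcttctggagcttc

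No exact CArG box lay in the 250 bases of either gene. Exact boxes occurred in 1.47% and near matches in 8.59% of the 32851 promoters of the table at this length. Of the 20 members with an entry, 3 had a near match, Acta2 with 2 and Gsn and Fbln2 with 1 each. The percentages are over promoter entries and the members are counted by gene, and several members have more than 1 entry. Gsn had its match in 1 entry and not in its others. Tagln and Myh11 had no entry, nor had Thy1, Ly6a, Clec3b, Dcn, Lum, Mfap4, Mfap5, Lox, Loxl1 and Pdgfrb. The letters describe these windows only.

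Fibroblast and mural genes also varied differently among replicates. In dispersed myoblasts replicate 1 at 48 hr and replicate 5 at 72 hr were the lowest of their 4 arrays for all 9 mural genes, with mean deviations from the group of -0.66 and -0.83. On the same arrays the fibroblast genes deviated by 0 and 0.14, with 10 and 15 of 20 above their group mean, the endothelial genes by -0.2 and -0.24 and the adult fiber genes by 0.6 and 0.14. The fibroblast genes were instead lowest on replicates 4 and 8, which had the lowest of 4 values for 10 and 14 of 20 genes and deviated by -0.18 and -0.31. On replicate 4 the mural genes were high, at 0.37, with 9 of 9 above the group mean. Replicates 1 and 5 lay in slide row 1 (columns 3 and 1) and replicates 4 and 8 in row 2 (columns 4 and 2). The part of slide position was not tested. Without replicates 1 and 5, left out after the values were seen and for their low mural signals, which narrows the spread of those genes by construction, 9 members passed in dispersed myoblasts in place of 8. The changes of Kcnj8, Rgs5, Abcc9 and Cnn1 were then -3.18, -2.06, -2.64 and 1.91.

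Among the myofiber-associated arrays the pooled 48-hr replicate 10+11 stood apart for fibroblast genes. It was the highest of 4 for 13 of the 19 fibroblast genes with 4 values and deviated by 0.44 on average, with 16 of 20 genes above the group mean. Mural genes deviated there by 0.15. The same array had the highest endothelial mean of its group, 10.59, and the lowest adult fiber mean, 15.21, and the part of the pooling in these values was not tested. At 72 hr replicates 1 and 3, which had the lower adult fiber means, read above replicates 2 and 4 for Acta2, Gsn and Fbln1 and below them for Abcc9, genes singled out after their values were seen.

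**Figure D5:**
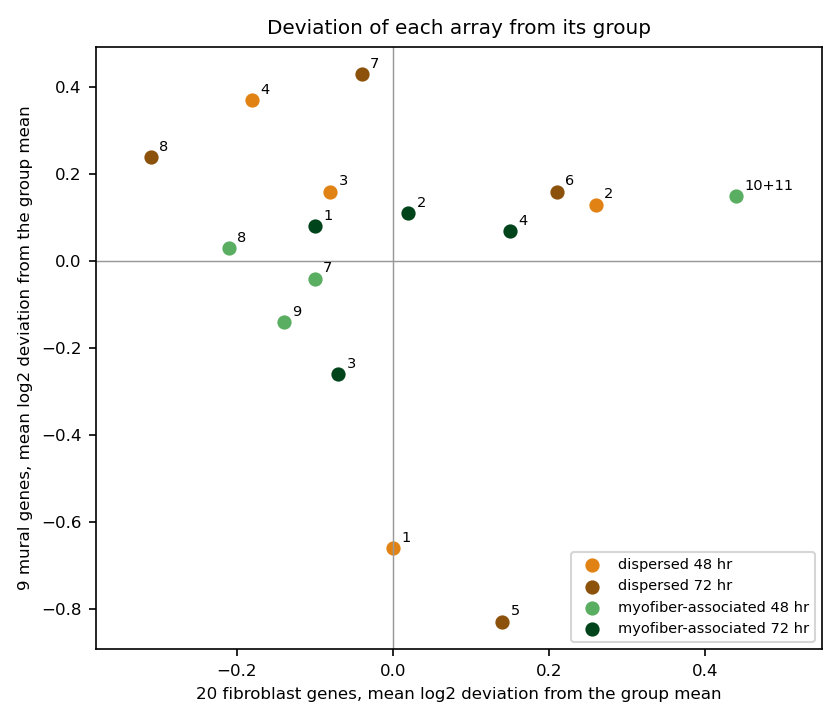
Mean log2 deviation of each array from its group mean over the 20 fibroblast genes (horizontal) and the 9 mural genes (vertical), 1 point per array labeled by replicate and colored by group. Dispersed replicates 1 and 5 lie at the bottom with mural deviations of -0.66 and -0.83, and the pooled myofiber-associated replicate 10+11 lies farthest right at 0.44.

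Other genes of the same cells, from lists written with earlier results of these data known, gave a wider view. Of all genes tested, 7.38% rose and 6.32% fell in dispersed myoblasts and 3.74% rose and 1.74% fell in myofiber-associated myoblasts, while 16.1% were higher and 27% lower in myofiber-associated than in dispersed myoblasts at 48 hr and 11.5% and 15.6% at 72 hr. These shares stand beside every count that follows. Of 36 tested fibroblast genes outside the members, 3 rose and 5 fell in dispersed myoblasts, with a median of -0.06, and 3 rose and 6 fell in myofiber-associated myoblasts, with a median of -0.52. Among the falls were Aspn and Col6a2 in dispersed myoblasts (-2.31 ± 0.38 and -1.71 ± 0.24), which encode the proteoglycan asporin and a collagen VI chain, and Cd34 and Col6a3 in myofiber-associated myoblasts (-1.68 ± 0.3 and -1.65 ± 0.19). In myofiber-associated myoblasts 12 of 20 endothelial genes fell too, with a median of -2.25. The part of other cell types in these falls was not tested. Gas1, a growth arrest protein, and Serpinf1, the secreted factor PEDF, rose in both cultures, by 0.5 ± 0.06 and 0.63 ± 0.04 in the dispersed cells and 1.59 ± 0.14 and 1.46 ± 0.2 in the myofiber-associated cells. Against dispersed myoblasts, 3 of the 36 were higher and 11 lower at 48 hr, and 6 higher and 14 lower at 72 hr, among the latter the progenitor factor Osr1 (-3.06 ± 0.21).

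Of 32 tested mural genes outside the members, 2 rose and 8 fell in dispersed myoblasts, with the endothelin receptor gene Ednrb (-2.72 ± 0.19), the connexin gene Gja4 (-2.68 ± 0.2) and the vitronectin gene Vtn (-2.58 ± 0.27) as the largest falls. In myofiber-associated myoblasts 5 rose and 6 fell, Ednrb and Gja4 again among the falls (-2.43 ± 0.31 and -2.21 ± 0.28), while the contractile genes Myl9 and Actg2 rose by 3.54 ± 0.3 and 2.43 ± 0.33. The change of Myl9 differed between cultures by -2.99 ± 0.39 (adjusted p = 0.000684). Between cultures 21 of the 32 were lower and 4 higher at 48 hr, with Actg2, the smooth muscle gamma actin, at -5.83 ± 0.36 and Kcnmb1, a calcium-activated potassium channel subunit, at -3.95 ± 0.29. At 72 hr 17 were lower and 2 higher, with Kcnmb1 at -5.38 ± 0.44. Tpm1, a tropomyosin shared with striated muscle, went the opposite way at 4.7 ± 0.18 and 2.77 ± 0.35.

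The ligands of the PDGF receptors and the regulators of contractile genes were measured as well. All 4 PDGF ligands were lower in myofiber-associated myoblasts at 48 hr, led by Pdgfd at -3.42 ± 0.23 (adjusted p = 1.34e-05), and 3 of 4 at 72 hr, with Pdgfd at -4.54 ± 0.36 and Pdgfb at -1.89 ± 0.27. Over time Pdgfd and Pdgfb fell in dispersed myoblasts (-0.8 ± 0.15 and -0.6 ± 0.1) and Pdgfc rose in myofiber-associated myoblasts (1.95 ± 0.27). Of 4 genes listed for SRF and its cofactors, 3 were tested and the other was below the limit for testing. None of the 3 passed the test between cultures at either time, with median differences of 0.06 and -0.35. At 72 hr 2 of them were lower in myofiber-associated myoblasts at an adjusted p under 0.05, with cultures that did not overlap. At that threshold 5081 of the 20317 genes were lower. The cofactor gene Mkl1 rose in dispersed myoblasts by 0.26 ± 0.04 (adjusted p = 0.00464).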

How the data were processed

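Single-color Agilent mouse arrays were scanned by the authors with Agilent Feature Extraction, and the deposited scanner files give an intensity per spot, background-subtracted and detrended by that software (gProcessedSignal). A further deposited table holds log2 ratios that the authors formed between every 72-hr array and the averaged 48-hr arrays of its culture, after loess and quantile normalization, which served as an alternative without a test. The submitters' processing notes name limma.

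The steps followed the study's methods as far as they state them. Spots marked as non-uniform or population outliers were dropped, log2 intensities were loess-normalized (span 0.3, 4 iterations) to the mean 48-hr array of the same culture and the 16 arrays were quantile-normalized. Replicate spots of a probe were averaged, each gene name was represented by its brightest probe, and only names whose median log2 signal reached 5 were kept, 20317 of 34836. The comparisons were fitted with limma (version 3.58.1, R 4.3.3) in place of the study's samr, on 8 arrays each and on 16 for the difference of changes, two-sided, with Benjamini-Hochberg adjustment over 20317 genes and a threshold of 0.01. Per the labels every replicate was an independent preparation, and 4 arrays per group limit the precision. The scripts were tested on simulated data.

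The members and lists were chosen with earlier results of these data known. All 32 members are named. Of every other list, at most 3 genes called higher and 3 called lower in a comparison, those with the largest log2 changes, could be named. The lists were other fibroblast genes, other mural genes, PDGF ligands, SRF and its cofactors, and markers of endothelial cells, leukocytes, Schwann cells, tenocytes, adipocytes, myoblasts and adult muscle fibers. The alternatives were another background correction, other scalings, other filters, the mean of all probes, 1 fit of all arrays, the slide row as a block, a threshold of 0.05 and each array left out. Figures were drawn with matplotlib (version 3.10.9).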

Additional observations from a re-analysis of the deposited data

Results flagged for a closer look

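Of 127 groups of 4 arrays, those of the 32 members with 4 values, 5 had an array whose gap to the nearest of the others was too large a share of the group's range by Dixon's 95% critical value. Chance marks about 1 in 20 groups, and no explanation was weighed. On the pooled myofiber-associated 48-hr array Fbln5 read 10.9 beside 8 to 8.21 on the other arrays and Lum read 12.45 beside 11.79 to 11.9. In dispersed myoblasts Cnn1 read 7.84 on 48-hr replicate 1 beside 8.75 to 8.85, Fbn1 read 11.81 on 48-hr replicate 4 beside 12.29 to 12.39, and Clec3b read 5.16 on 72-hr replicate 8 beside 5.52 to 5.59.

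The change from 48 to 72 hr differed between the cultures for 3 members by limma's test of the difference itself, given as dispersed minus myofiber-associated. It was 1.87 for Pdgfra, -1.63 for Ly6a and -0.93 for Ogn. Of these, Ly6a passed the threshold without any 1 array, and Pdgfra and Ogn passed in 4 of 16 such fits each.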

How the results depend on the processing

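No paired analysis was possible because the groups compared share no replicate number that marks a common animal or day. Over all members, comparisons and alternatives, 2617 values were counted as unchanged, 101 lost the call, 79 gained one and 43 changed sign. Unchanged meant the same direction and the same side of the threshold. For the authors' table, which has no test, it meant the same direction only. The tally includes the looser threshold, at which no call can be lost and no sign can change. It also includes the fits without the dispersed arrays low in mural genes, left out together after seeing the data. All sign changes were of members without a call.

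In dispersed myoblasts 4 members passed without the filter on low signal and 14 at an adjusted p under 0.05, where 5461 genes passed, and 999 genes passed in 1 fit of all arrays. Fbn1 changed by 0.04 with scaling to the 75th percentile and Mfap4 by -0.06 in the authors' table. Without both dispersed arrays that were low in mural genes, left out after seeing the data, 1543 genes passed, Fbn1 and Mfap4 changed by 0.02 and -0.03, and 3505 genes differed between cultures at 72 hr. In myofiber-associated myoblasts 2 members passed with normexp background correction (mural median -0.42) and 2 without the filter (468 genes), 571 genes with the slide row as a block, 14 members and 4585 genes at 0.05, and 12 members and 5780 genes in 1 fit of all arrays. For the difference of changes 1 member and 409 genes passed without the filter, and 7 members and 3129 genes at 0.05. There Sparc was -0.02 with normexp, with the 75th percentile and in the authors' table and -0.03 with the mean of all probes, and Fbln5 -0.03 with that mean. Between cultures Mfap4 was 0.07 at 48 hr and Clec3b 0.14 at 72 hr with the 75th percentile, and 9304 genes differed at 72 hr at 0.05. The causes were not tested.

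With 1 array left out, 1679 to 2507 genes and 4 to 8 members passed in dispersed myoblasts, 232 to 1991 genes and 1 to 6 members in myofiber-associated myoblasts, 295 to 2368 genes and 1 to 3 members for the difference of changes, and 3315 to 5627 genes at 72 hr between cultures. The highest counts of 1991 and 2368 genes came without the pooled replicate 10+11, beside 1392 and 1766 (5 members in myofiber-associated myoblasts) without 72-hr replicate 4, and the lowest of 1679, 232, 295 and 3315 without dispersed 48-hr replicate 2, myofiber-associated 48-hr replicate 7, dispersed 72-hr replicate 6 and dispersed 72-hr replicate 6. The changes in dispersed myoblasts ran from -0.42 to 0.1 for Clec3b, -0.14 to 0.05 for Fbn1, -0.06 to 0.2 for Mfap4, -0.25 to 0.09 for Loxl1 and -0.29 to 0.15 for Myh11, and that of Lox in myofiber-associated myoblasts from -0.13 to 0.3 (-0.04 without replicate 10+11). The difference of changes ran from -0.28 to 0.24 for Clec3b, -0.21 to 0.11 for Gsn, -0.07 to 0.04 for Sparc and -0.08 to 0.34 for Pdgfrb. Between cultures at 48 hr the range was -0.4 to 0.12 for Clec3b, -0.01 to 0.46 for Dcn and -0.25 to 0.11 for Mfap4 (-0.22 without replicate 8), and at 72 hr -0.24 to 0.02 for Fbln1 and -0.49 to 0.07 for Rgs5. Signals near background limit Cnn1, Myh11, Kcnj8 and Dpt in the groups named above.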
